A study of Arabidopsis thaliana with 9 samples.

Results

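Both mutants of the series, tmk1-1 and iaa32iaa34, were set together against wild-type apical hooks of Arabidopsis thaliana. The comparison takes the 3 tmk1-1 libraries and the 3 iaa32iaa34 libraries as 1 group, with each genotype weighted equally, against the 3 WT libraries, and so uses all 9 of the 9 libraries of the series. The contrast was the mean of the 2 mutant genotype means minus the WT mean, for every gene of the table, on the scale of log2(CPM + 1), where CPM is the read count of a gene scaled to a fixed library total. A pooled difference can thus come from both mutants or from 1 of them, and the values of each are given for most called genes that are named.

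The tmk1-1 samples carry the mutant allele of that name, the iaa32iaa34 samples are a double mutant, and the WT samples are Col-0. The sources used here do not say what kind of alleles these are or how many independent lines were grown. Per the labels, all seedlings were 45 h old and had grown in darkness at 22 °C, and a sample held about 50 hooks of about 2 mm without cotyledons. The labels describe biological triplicates.

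The apical hook is the bend that a seedling germinating in darkness forms below its cotyledons. It arises because cells on the concave side elongate less than those on the convex side, where the hormone auxin is lower, and ethylene and gibberellin keep it closed. TMK1 belongs to the receptor-like kinases and sits in the plasma membrane. IAA32 and IAA34 are Aux/IAA repressors that lack the degron through which typical members are degraded with auxin, and TMK1 is known to act on them in the hook. Pooling the kinase mutant and the repressor mutant asks how their mean differs from WT. It does not by itself show what they share, since either mutant alone can carry the difference.

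Library totals were 10077093 to 13601488 reads, of which 88.6 to 90.6% fell on the 16383 genes of the table, and the median gene of a library had 200 to 272 reads. Of the variance, 41.7% lay on the first principal component, where the scores were 41.4, 7.34 and 24.6 in tmk1-1, 30.5, -14.7 and -4.45 in iaa32iaa34, and -14.5, -17.4 and -52.9 in WT. On this component iaa32iaa34 replicate 2 lay between the WT libraries 1 and 2, and WT replicate 3 stood apart from all others. For some of the results, values without these libraries are given as well. Because whole hooks were sampled, fewer cells of a type and less RNA per cell cannot be told apart in any of the values.

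The targeted genes checked the labels. TMK1 (AT1G66150) stood at 45.4, 29.0 and 26.8 CPM in the tmk1-1 libraries and at 477, 463 and 514 CPM in the iaa32iaa34 libraries, against 387, 468 and 469 CPM in WT. It was low in tmk1-1 alone, so the 6 mutant libraries overlapped WT, and its pooled log2 change of -1.78 ± 0.17 (SE) is a mean of -3.70 and 0.14 (limma, adjusted p = 0.00163). IAA32 (AT2G01200) stood at 22.3, 25.4 and 28.5 CPM in tmk1-1 and at 6.44, 10.5 and 8.48 CPM in iaa32iaa34, against 55.3, 43.0 and 50.9 CPM in WT. All 6 mutant libraries lay below all WT libraries, and the pooled log2 change was -1.69 ± 0.16 (limma, adjusted p = 0.00163). It was lower in the double mutant that carries its mutation than in tmk1-1, with a log2 difference of tmk1-1 minus iaa32iaa34 of 1.5 ± 0.18 (limma, adjusted p = 0.0192). The other repressor gene, IAA34, was not analysed here. Of the other kinases of the TMK family, AT2G01820 and AT3G23750 were measured, and their pooled log2 differences were 0.0036 and 0.03, with neither past the threshold.

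Against WT, 82 of 16383 genes (0.501%) changed in the pooled mutants, of which 32 rose (0.195%) and 50 fell (0.305%). The call is a Benjamini-Hochberg adjusted p under 0.05 in limma over all genes. The 32 genes that rose did so by a median of 1.22 on the log2 scale and the 50 that fell had a median of -1.18, with a median standard error of 0.18. In 80 of the 82 genes the 6 mutant libraries did not overlap the 3 WT libraries, and TMK1 and AT5G65660 were the exceptions. Over the whole table such a separation was found upward in 522 genes (3.19%) and downward in 1257 genes (7.67%). Without adjustment 3622 genes had p under 0.05, 1500 of them higher and 2122 lower in the mutants, and the median log2 difference of all genes was -0.07.

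The number of calls depended on single libraries. Of the 82, 60 had an adjusted p in limma of at least 0.049 and 9 had one under 0.01. Without tmk1-1 replicates 1, 2 and 3 the count was 12, 335 and 12, without iaa32iaa34 replicates 1, 2 and 3 it was 14, 1422 and 10, and without WT replicates 1, 2 and 3 it was 17, 10 and 9. With iaa32iaa34 replicate 2 and WT replicate 3 both left out, an alternative chosen after the data were seen, 396 genes passed, 251 upward and 145 downward, and 67 of the 82 were among them. In 46 of the 82 genes (56.1%) iaa32iaa34 replicate 2 was the mutant library nearest to WT in the direction of the change, beside 30.9% of all genes. Of the 35 genes past the threshold that are named by the rule given under the processing, 6 passed with any 1 library left out. These were TUA2, AT1G50020, AT2G06845, XTH5, IAA32 and TMK1. ACS11 passed without any library but WT replicate 2, where its adjusted p in limma was 0.0822. The other 28 passed without tmk1-1 replicate 2 and without iaa32iaa34 replicate 2. They lost the call when any of the other 7 libraries was left out, with adjusted p-values in limma of 0.0601 to 0.198, except that AT5G18600, GASA6, HK5 and EXO70C2 also passed without WT replicate 1. Their direction was the same in every one of these fits.

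**Figure D1:**
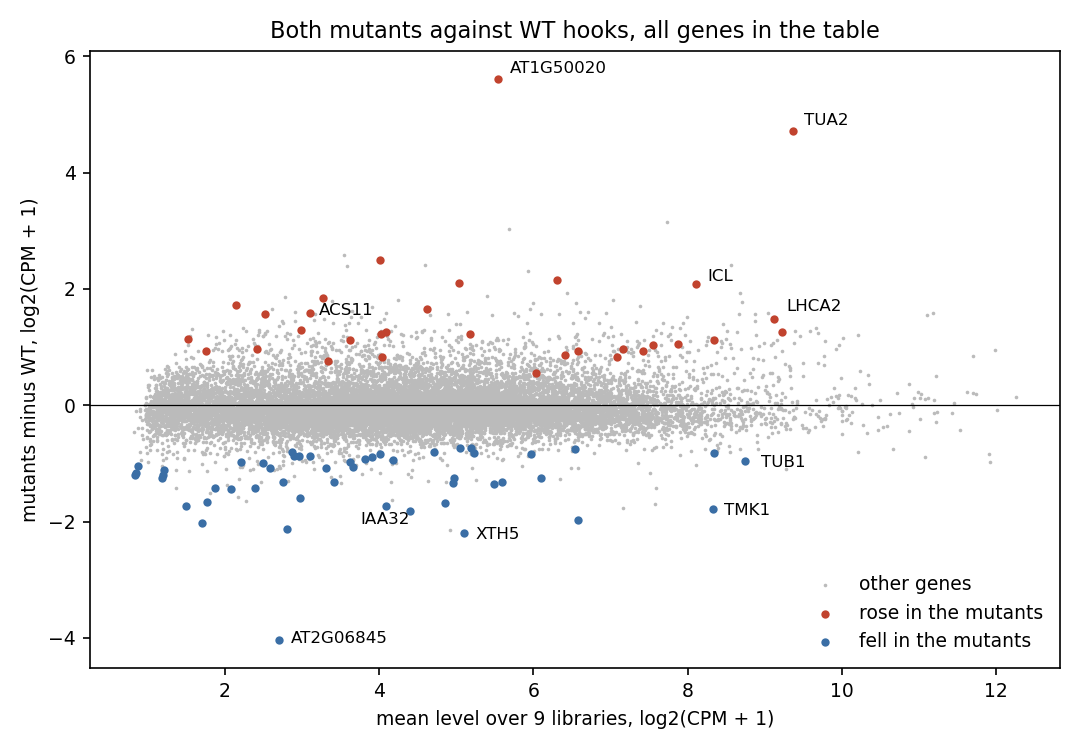
Mean level of each gene over the 9 libraries, as log2(CPM + 1), against its pooled difference between the mutants and WT on the same scale, for 16383 genes. Red points rose and blue points fell at an adjusted p under 0.05 in limma; AT1G50020 at 5.62, TUA2 at 4.72 and AT2G06845 at -4.03 lie apart from all other called genes.

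The 3 largest changes were of like size in both mutants, which were set against the same 3 WT libraries. A difference carried by the mutants and one carried by these WT samples cannot be told apart here. TUA2 (AT1G50010), an alpha-tubulin gene and so a building block of microtubules, stood at 845, 1052 and 981 CPM in tmk1-1 and at 952, 986 and 999.9 CPM in iaa32iaa34, against 35.1, 31.9 and 40.5 CPM in WT. Its mutant mean was 27.1 times its WT mean, the log2 change was 4.72 ± 0.13 (limma, adjusted p = 2.98e-08), and the mutants differed from each other by -0.04 ± 0.14. Libraries within each of the 3 groups lay close together, with a gap between the mutants and WT far wider than either group.

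AT1G50020 is a gene without a symbol that follows TUA2 directly in the order of the measured genes in the TAIR10.1 annotation. That annotation gives its product as a tubulin alpha-6 chain, although TUA6 is another gene. It stood at 73.5, 62.5 and 83.7 CPM in tmk1-1 and at 82.4, 37.6 and 70.6 CPM in iaa32iaa34, against 0, 1.06 and 0.256 CPM in WT. In reads, inferred from the steps of the CPM values, these were 846, 630 and 1139 in tmk1-1 and 870, 424 and 824 in iaa32iaa34, against 0, 13 and 3 in WT. The log2 change was 5.62 ± 0.27 (limma, adjusted p = 5.07e-06), and it was 6.92 with a pseudocount of 0.25 and 3.99 with a pseudocount of 4, so its size depends on the pseudocount while the call does not. Among the 5 measured neighbours on either side of TUA2, AT1G50020 itself left out, the log2 differences were -1.02 to 1.04 and none passed. The sources used here do not say how reads of adjoining or near-identical genes were divided, so the share of each of the 2 genes in these reads is uncertain.

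AT2G06845, described in the annotation as a beta-galactosidase related protein, was nearly absent from the mutants. It had 0, 1 and 0 reads in tmk1-1 and 1 read in each iaa32iaa34 library, against 193, 191 and 189 reads in WT. Every mutant library was thus below the floor of 3 reads, which is 0.221 to 0.298 CPM, and the WT libraries stood at 17.5, 15.5 and 16.1 CPM. The log2 change was -4.03 ± 0.14 (limma, adjusted p = 2.44e-07), and it was -5.75 and -2.33 with pseudocounts of 0.25 and 4. Its 10 nearest measured neighbours had log2 differences of -0.39 to 0.23, and none passed. The next gene, XTH4, an enzyme of wall xyloglucan, was at 0.23.

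One further adjoining pair was called, AT5G57785 and AT5G57790 on chromosome 5, named here after their values were seen, with log2 changes of 2.16 ± 0.37 and 1.23 ± 0.22 (limma, adjusted p = 0.0494 and 0.0499). AT5G57785 stood at 73.5, 91.0 and 97.7 CPM in tmk1-1 and at 155, 44.4 and 179.9 CPM in iaa32iaa34, against 15.9, 25.1 and 22.7 CPM in WT. Otherwise the calls were spread over the chromosomes, at 0.422 to 0.622% of the genes tested on each of the 5.

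**Figure D2:**
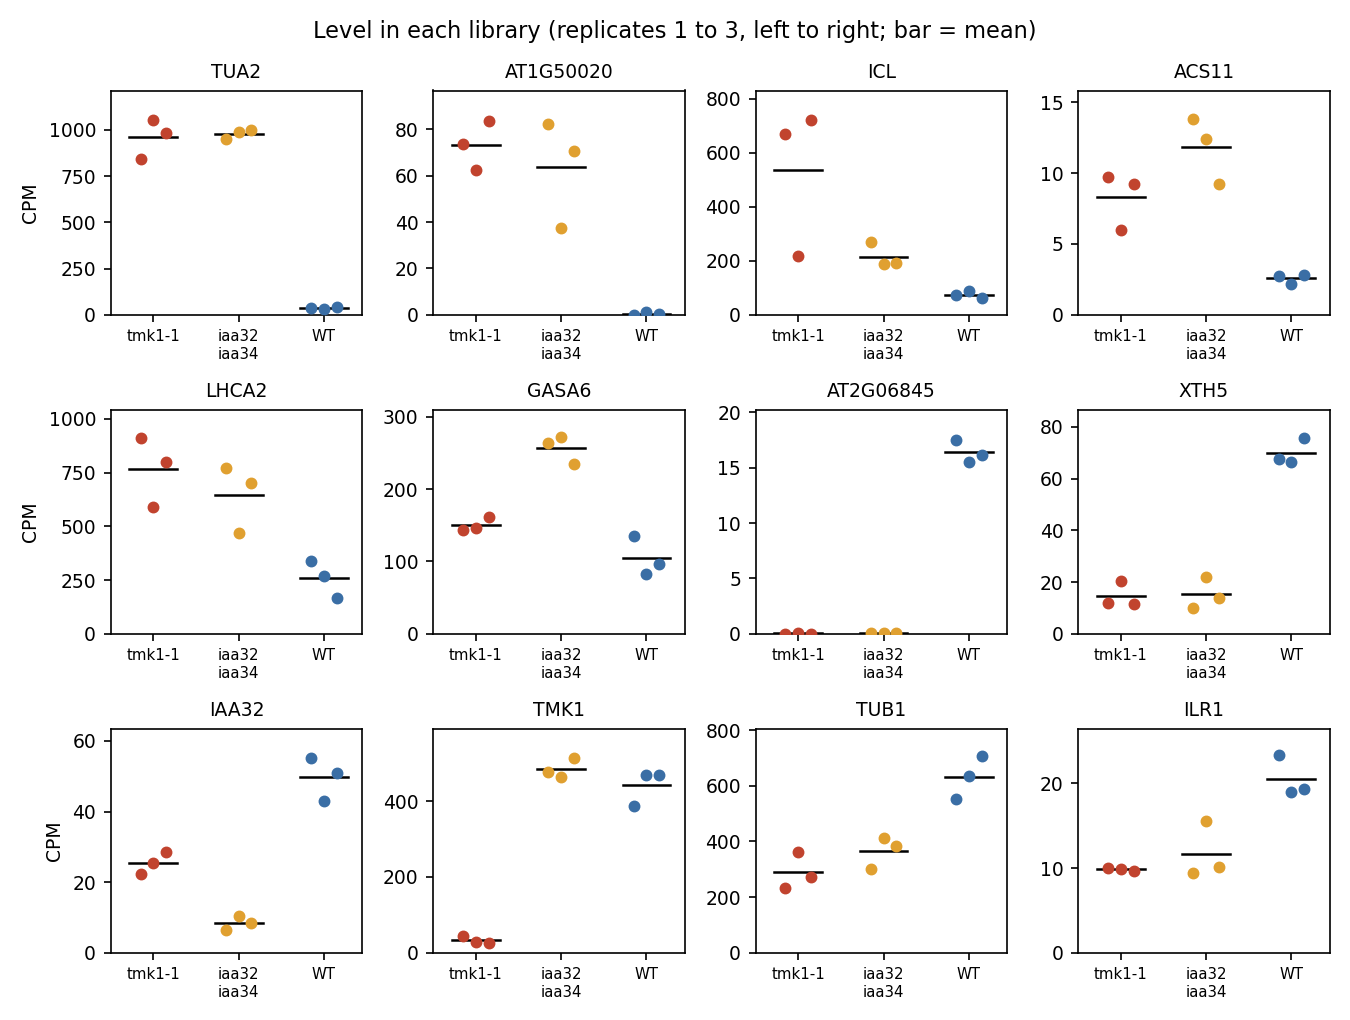
CPM of 12 genes in each library, with tmk1-1 and iaa32iaa34 to the left of WT, replicates 1 to 3 from left to right and the genotype mean as a bar. TUA2 and AT1G50020 are near the bottom of the axis in WT only, AT2G06845 is at the bottom in both mutants, TMK1 is low in tmk1-1 and IAA32 is lowest in iaa32iaa34.

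Of the 6 alpha-tubulin genes TUA2 alone was called, and 4 of the other 5 were lower in the mutants, and the list's median log2 difference was -0.18. Without WT replicate 3 that median was -0.07, close to the -0.08 of all genes in that fit. With median-of-ratios scaling it was -0.12, beside -0.0051 for all genes. Summed over the 6 genes, alpha-tubulin stood at 4103, 5368 and 4925 CPM in tmk1-1 and at 4831, 5577 and 5983 CPM in iaa32iaa34, against 4754, 4741 and 6048 CPM in WT, so the sums of the groups overlapped. Without TUA2 the sums were 3258, 4316 and 3944 CPM in tmk1-1 and 3879, 4591 and 4983 CPM in iaa32iaa34, against 4719, 4709 and 6007 CPM in WT. These genes are near-identical, and their levels are uncertain for that reason.

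All 9 beta-tubulin genes, whose products pair with alpha-tubulin, were lower in the pooled mutants, with a median of -0.31, and 1 of them fell. This was TUB1, with 233, 363 and 273 CPM in tmk1-1 and 300.0, 411 and 385 CPM in iaa32iaa34, against 552, 636 and 709 CPM in WT, a log2 change of -0.97 ± 0.17 (limma, adjusted p = 0.0499). The beta-tubulin sum was 3829, 4432 and 4288 CPM in tmk1-1 and 4158, 5095 and 4718 CPM in iaa32iaa34, against 5320, 5172 and 6081 CPM in WT. The 6 mutant sums lay below the 3 WT sums. Without TUB1 they overlapped, with 3596, 4069 and 4016 CPM in tmk1-1 and 3858, 4684 and 4333 CPM in iaa32iaa34, against 4768, 4536 and 5373 CPM in WT.

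The listed nuclear genes of photosynthesis all had higher pooled means in the mutants, although iaa32iaa34 replicate 2 stood within the WT range for the list. Of the 36 measured members of this list, which covers light-harvesting proteins, photosystem subunits and Rubisco, 36 were higher, with a median log2 difference of 1.14, while 41% of all genes were higher and the median of all genes was -0.07. The medians were 1.25 in tmk1-1 and 1.05 in iaa32iaa34 against the same WT libraries. In 14 of the 36 all mutant libraries lay above all WT libraries, beside 3.19% of all genes. Of the 36, 3 rose (limma, adjusted p of 0.0494 to 0.0499), against 0.195% of all genes that rose.

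LHCA2, a light-harvesting protein of photosystem I, stood at 911, 592 and 797 CPM in tmk1-1 and at 771, 467 and 702 CPM in iaa32iaa34, against 340.3, 269.8 and 166 CPM in WT, a log2 change of 1.48 ± 0.25. LHCB4.1, an antenna protein of photosystem II, stood at 971, 629 and 859.7 CPM in tmk1-1 and at 781, 496 and 679 CPM in iaa32iaa34, against 381, 337 and 213 CPM in WT, a log2 change of 1.25 ± 0.23. PSBQ-2, of the oxygen-evolving complex, stood at 225, 221 and 221 CPM in tmk1-1 and at 253, 161 and 262 CPM in iaa32iaa34, against 128, 119.7 and 79.6 CPM in WT, a log2 change of 1.04 ± 0.19. In each of these 3 genes iaa32iaa34 replicate 2 was the lowest mutant library and WT replicate 3 the lowest of all. By complex, the medians were 1.26 for the 12 light-harvesting genes, 1.13 for 11 photosystem I subunits, 1.07 for 8 photosystem II subunits and 1.04 for the 5 genes of Rubisco and its activase, a division made after the values were seen.

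The list moved within genotypes too. Its mean deviation per library, in log2 units from the mean of all libraries, was 0.54, 0.55 and 0.47 in tmk1-1 and 0.75, -0.60 and 0.69 in iaa32iaa34, against -0.62, -0.51 and -1.27 in WT. The summed level was 14573 CPM in iaa32iaa34 replicate 2 and 28066 to 34642 CPM in the other mutant libraries, against 8757 to 16310 CPM in WT. The iaa32iaa34 replicate 2 library thus stood within the WT range. Without it 33 of the 36 genes rose, with a median of 1.33, and without tmk1-1 replicate 2 there were 6. Leaving out any of the other 7 libraries left 0, as did median-of-ratios scaling, TMM scaling, a pseudocount of 0.25, a mean CPM of at least 10, the mutants as 1 group and a fit without the mean-variance trend. Without iaa32iaa34 replicate 2 and WT replicate 3 together, 32 rose and the median was 1.13, and the lowest median over all fits was 0.94. These genes are also markers of cotyledon tissue, which was cut away, and of greening. The part of either in the difference was not tested.

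**Figure D3:**
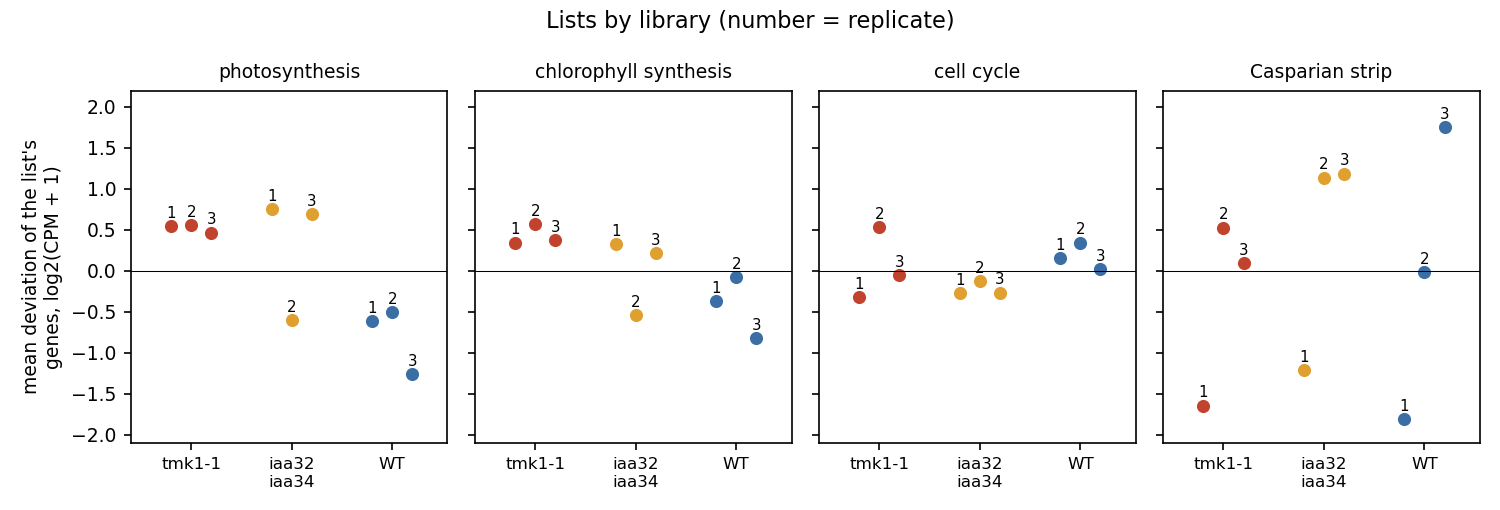
Mean deviation of the genes of 4 lists from their mean over the 9 libraries, in log2(CPM + 1), for each library, with the replicate number above the point. In the photosynthesis list iaa32iaa34 replicate 2 at -0.60 lies with WT, and in the Casparian strip list the libraries of each genotype are spread over much of the axis.

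Other genes of the chloroplast rose as well. PETC, the Rieske protein that passes electrons between the photosystems, stood at 322, 255 and 309 CPM in tmk1-1 and at 313, 203 and 288 CPM in iaa32iaa34, against 159, 145 and 102 CPM in WT, a log2 change of 1.06 ± 0.18 (limma, adjusted p = 0.0494). PSBTN, a small photosystem II subunit, rose by 0.97 ± 0.17, and OTP85, a factor of chloroplast RNA editing, by 0.97 ± 0.16 (limma, adjusted p = 0.0499 and 0.0494). GPX1, a chloroplast glutathione peroxidase named after its value was seen, stood at 108, 97.2 and 107 CPM in tmk1-1 and at 96.0, 78.8 and 111 CPM in iaa32iaa34, against 51.5, 53.9 and 55.6 CPM in WT. In PETC, PSBTN, OTP85 and GPX1 alike iaa32iaa34 replicate 2 was the mutant library nearest to WT.

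With all libraries, no member of the 14 chlorophyll synthesis genes or the 6 greening regulators passed the threshold. Of the chlorophyll list 12 were higher, with a median of 0.66. That median was 0.48 without WT replicate 3 and 0.79 without iaa32iaa34 replicate 2. Without both of these libraries 5 of the 14 passed. CHLM, the methyltransferase that acts on magnesium protoporphyrin, stood at 307, 222 and 278 CPM in tmk1-1 and at 266, 162 and 216 CPM in iaa32iaa34, against 146, 129.7 and 81.5 CPM in WT (limma, adjusted p = 0.0625). Of the regulators 5 were higher, with a median of 0.59. That median was 0.41 without WT replicate 3 and 0.73 without iaa32iaa34 replicate 2, and 1 regulator passed without both. CGA1, a GATA factor of chloroplast development, stood at 30.6, 18.3 and 26.0 CPM in tmk1-1 and at 13.1, 0.798 and 5.74 CPM in iaa32iaa34, against 1.09, 2.27 and 0.683 CPM in WT (limma, adjusted p = 0.063). Here iaa32iaa34 replicate 2 lay inside the WT range, so the groups overlapped.

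Genes of the organelle genomes were examined after these values were seen. Of 100 plastid-encoded genes 88 were higher in the mutants, with a median of 0.32, and of 30 mitochondrion-encoded genes 27 were lower, with a median of -0.35. Neither set had a called member, and their smallest adjusted p-values in limma were 0.0672 and 0.0818.

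Among genes of sugar, storage and oil use, ICL rose and OLEO3 fell. ICL encodes isocitrate lyase, an enzyme of the cycle by which seedlings turn seed oil into sugar. It stood at 668, 219 and 722 CPM in tmk1-1 and at 268, 186 and 190.2 CPM in iaa32iaa34, against 72.5, 89.2 and 62.3 CPM in WT. Its log2 change was 2.08 ± 0.34 (limma, adjusted p = 0.0494), with 2.66 in tmk1-1 and 1.51 in iaa32iaa34, and the mutants did not differ past the threshold (limma, adjusted p = 0.512). Of 13 genes of oil breakdown and the glyoxylate cycle, ICL alone was called, 8 were higher and 5 lower, and the median was 0.04, a value that was -0.02 without iaa32iaa34 replicate 2. MLS, the malate synthase that acts next to ICL, had a log2 difference of 0.45 that did not pass (limma, adjusted p = 0.36).

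OLEO3, an oleosin of oil bodies, stood at 24.9, 23.8 and 26.0 CPM in tmk1-1 and at 19.5, 54.4 and 28.5 CPM in iaa32iaa34, against 74.2, 65.7 and 79.2 CPM in WT, a log2 change of -1.35 ± 0.25 (limma, adjusted p = 0.0499). The iaa32iaa34 replicate 2 library was the highest of the mutants. That all mutant libraries lay below WT was a condition for naming OLEO3. SFP1, of a family of sugar transporters, stood at 31.2, 49.2 and 34.0 CPM in tmk1-1 and at 32.3, 12.6 and 26.6 CPM in iaa32iaa34, against 7.46, 11.7 and 7.0 CPM in WT, a log2 change of 1.65 ± 0.28 (limma, adjusted p = 0.0494).

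Apart from IAA32, no measured member of the lists of auxin receptors, Aux/IAA repressors, auxin synthesis, GH3 or SAUR genes was called with all libraries. In alternative fits up to 1 receptor, 2 synthesis, 3 GH3 and 1 SAUR gene passed, and 0 Aux/IAA genes. A gene of auxin release outside these lists fell. This was ILR1, a hydrolase that frees auxin from its amino acid conjugates. It stood at 9.99, 9.92 and 9.70 CPM in tmk1-1 and at 9.37, 15.5 and 10.1 CPM in iaa32iaa34, against 23.4, 18.9 and 19.4 CPM in WT, a log2 change of -0.89 ± 0.16 (limma, adjusted p = 0.0499). The rule that named ILR1 required all mutant libraries to lie below WT, and iaa32iaa34 replicate 2 was nearest to WT.

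Of the 61 measured genes of the 5 auxin lists, 6 (9.84%) had all mutant libraries below all WT libraries, near the 7.67% of all genes, and 0 had them above. None of the 6 passed, and 1064 genes of the table had an adjusted p in limma under 0.10. TAA1, which makes the auxin precursor indole-3-pyruvate from tryptophan, stood at 27.7, 45.2 and 36.1 CPM in tmk1-1 and at 35.8, 63.9 and 45.8 CPM in iaa32iaa34, against 83.8, 75.4 and 97.8 CPM in WT, a log2 difference of -1.04 ± 0.20 (limma, adjusted p = 0.0541). Of the 6 measured synthesis genes 5 were lower, with a median of -0.25. DFL2, a GH3 family gene, stood at 39.0, 32.6 and 38.8 CPM in tmk1-1 and at 34.8, 44.3 and 36.2 CPM in iaa32iaa34, against 57.4, 61.6 and 55.2 CPM in WT (limma, adjusted p = 0.056). Of the 7 GH3 genes 5 were higher, DFL2 and GH3.1 being the exceptions, and the median was 0.48, or 0.22 without WT replicate 3.

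GRH1, also called AFB1, is an auxin receptor F-box gene. It stood at 137, 156 and 146 CPM in tmk1-1 and at 152, 170.4 and 148 CPM in iaa32iaa34, against 210.1, 229 and 198 CPM in WT, a log2 difference of -0.48 ± 0.11 (limma, adjusted p = 0.0658). The 5 receptor genes had a median of -0.07, with 2 higher and 3 lower. With median-of-ratios scaling that median was 0.00051, while the median of all genes moved from -0.07 to -0.0051. IAA1, an Aux/IAA gene induced by auxin, stood at 48.1, 55.8 and 57.6 CPM in tmk1-1 and at 63.0, 59.1 and 69.2 CPM in iaa32iaa34, against 79.1, 74.6 and 83.5 CPM in WT (limma, adjusted p = 0.0798). The other Aux/IAA genes, 22 with IAA1, had 16 members below WT and a median log2 difference of -0.10, close to that of all genes.

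The listed SAUR genes, small transcripts of elongating tissue that auxin induces, had 18 of 21 members lower and a median of -0.17. This direction rested on WT replicate 3, without which the median was 0.05, and with iaa32iaa34 replicate 2 left out as well it was 0.16. SAUR17 (AT4G09530) stood at 0.174, 0.298 and 0.515 CPM in tmk1-1 and at 0.663, 1.51 and 1.03 CPM in iaa32iaa34, against 3.36, 1.95 and 2.05 CPM in WT (limma, adjusted p = 0.056). The 0.174 and 0.298 CPM in tmk1-1 are near the floor of 3 reads.

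Ethylene and gibberellin keep the hook closed. The list of each had 1 called member, and both rose. ACS11, an ACC synthase and thus an enzyme of the committed step of ethylene synthesis, stood at 9.73, 5.95 and 9.26 CPM in tmk1-1 and at 13.8, 12.4 and 9.25 CPM in iaa32iaa34, against 2.73, 2.19 and 2.82 CPM in WT. Its log2 change was 1.59 ± 0.18 (limma, adjusted p = 0.00825), and its mutant mean was 3.91 times its WT mean. The other ACC synthases did not share this direction throughout. ACS5 and ACS8 had log2 differences of -1.12 and -1.01, with all mutant libraries below WT, and did not pass (limma, adjusted p = 0.063 and 0.082). Of the 20 ethylene genes 15 were lower, with a median of -0.14. This median was -0.28 without iaa32iaa34 replicate 2, -0.25 without WT replicate 3 and -0.09 without iaa32iaa34 replicate 1.

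GASA6, a gibberellin-regulated peptide gene, stood at 143, 146 and 162 CPM in tmk1-1 and at 264, 273 and 235 CPM in iaa32iaa34, against 136, 82.3 and 97.2 CPM in WT. The tmk1-1 libraries lay just above the highest WT library and the iaa32iaa34 libraries well above it. The pooled log2 change was 0.93 ± 0.15 (limma, adjusted p = 0.0494), made up of 0.54 in tmk1-1 and 1.31 in iaa32iaa34, and the mutants did not differ past the threshold (limma, adjusted p = 0.303). GASA4, of the same family, had a log2 difference of -0.83 with all mutant libraries below WT and did not pass (limma, adjusted p = 0.08). AT1G22690, annotated as a gibberellin-regulated family protein, is outside the list and was named after its values were seen. It rose by 0.93 ± 0.16 (limma, adjusted p = 0.0494), with means of 3.02 CPM in the mutants and 1.12 CPM in WT. Of the 13 listed gibberellin genes 9 were lower, and the median of -0.19 ranged from -0.37 without WT replicate 2 to -0.06 without WT replicate 3.

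Of 21 wall-loosening genes, which are xyloglucan endotransglucosylases (XTH) and expansins, XTH5 alone was called, and it fell. It stood at 11.9, 20.2 and 11.6 CPM in tmk1-1 and at 10.1, 21.9 and 13.8 CPM in iaa32iaa34, against 67.5, 66.5 and 75.5 CPM in WT, a log2 change of -2.20 ± 0.23 (limma, adjusted p = 0.00392). The mutants had nearly the same values, with a log2 difference between them of -0.04. The rest of the list went both ways, with 9 genes higher, 12 lower and a median of -0.10. TCH4, an XTH gene known to respond to touch, had a log2 difference of 0.53 with all mutant libraries above WT and did not pass (limma, adjusted p = 0.087).

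Among regulators, 2 genes of the UPBEAT type fell together. UPB1, a basic helix-loop-helix factor known from roots for its control of peroxidases, stood at 16.9, 17.2 and 19.7 CPM in tmk1-1 and at 13.5, 31.3 and 20.3 CPM in iaa32iaa34, against 48.9, 40.6 and 63.2 CPM in WT, a log2 change of -1.34 ± 0.23 (limma, adjusted p = 0.0494). AT5G39240, which the annotation describes as UPBEAT-like, stood at 1.04, 2.48 and 2.35 CPM in tmk1-1 and at 1.14, 6.47 and 1.54 CPM in iaa32iaa34, against 16.3, 10.2 and 12.5 CPM in WT, a log2 change of -2.13 ± 0.37 (limma, adjusted p = 0.0494). In both genes iaa32iaa34 replicate 2 was the highest mutant library.

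PRE5, a small helix-loop-helix protein of a family that promotes cell elongation, fell as well. It stood at 10.3, 14.6 and 13.0 CPM in tmk1-1 and at 9.85, 14.5 and 15.3 CPM in iaa32iaa34, against 23.5, 25.6 and 27.6 CPM in WT, a log2 change of -0.95 ± 0.16 (limma, adjusted p = 0.0494). VDD, a B3 domain factor known from the embryo sac, stood at 2.87, 3.57 and 3.16 CPM in tmk1-1 and at 2.65, 4.52 and 2.83 CPM in iaa32iaa34, against 7.55, 6.98 and 7.60 CPM in WT, a log2 change of -0.99 ± 0.16. BLH3, a homeodomain protein of the BELL class, rose, with 26.4, 16.7 and 22.6 CPM in tmk1-1 and 23.3, 16.5 and 15.2 CPM in iaa32iaa34, against 10.3, 8.77 and 4.86 CPM in WT, a log2 change of 1.26 ± 0.23.

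Kinases and transport proteins were found among the falls. HK5, a histidine kinase known from stomatal responses to hydrogen peroxide, stood at 4.78, 5.46 and 5.51 CPM in tmk1-1 and at 5.87, 9.05 and 5.83 CPM in iaa32iaa34, against 11.5, 21.0 and 17.9 CPM in WT, a log2 change of -1.32 ± 0.20 (limma, adjusted p = 0.0388). WNK3, a kinase of the WNK family, stood at 38.6, 45.1 and 39.3 CPM in tmk1-1 and at 47.4, 71.7 and 53.6 CPM in iaa32iaa34, against 85.6, 80.1 and 94.6 CPM in WT, a log2 change of -0.83 ± 0.14. IRT3 is a metal transporter gene that the annotation calls iron regulated transporter 3. It stood at 11.6, 13.2 and 10.7 CPM in tmk1-1 and at 9.85, 12.6 and 12.3 CPM in iaa32iaa34, against 26.3, 22.6 and 17.2 CPM in WT, a log2 change of -0.84 ± 0.16. In HK5 and WNK3 iaa32iaa34 replicate 2 was the mutant library nearest to WT, and in IRT3 the mutant libraries lay close together. EXO70C2, a subunit of the exocyst complex of secretion, stood at 0.869, 1.79 and 1.40 CPM in tmk1-1 and at 2.18, 2.66 and 1.37 CPM in iaa32iaa34, against 4.82, 7.06 and 7.0 CPM in WT, a log2 change of -1.45 ± 0.20 (limma, adjusted p = 0.0254). MCC1, a histone acetyltransferase gene known from meiosis, stood at 4.43, 4.47 and 5.37 CPM in tmk1-1 and at 3.98, 6.30 and 4.71 CPM in iaa32iaa34, against 10.9, 9.34 and 8.70 CPM in WT, a log2 change of -0.86 ± 0.16.

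UGT84A3, a glucosyltransferase of hydroxycinnamic acids, stood at 4.43, 2.48 and 4.12 CPM in tmk1-1 and at 13.6, 7.18 and 6.85 CPM in iaa32iaa34, against 1.09, 2.03 and 0.853 CPM in WT, a log2 change of 1.56 ± 0.25 (limma, adjusted p = 0.0494). SNG1, which makes the sunscreen compound sinapoylmalate, stood at 463, 378 and 399 CPM in tmk1-1 and at 511, 292 and 330.2 CPM in iaa32iaa34, against 213, 194 and 136 CPM in WT, a log2 change of 1.12 ± 0.20 (limma, adjusted p = 0.0499). Of the 8 measured flavonoid and phenylpropanoid genes UGT84A3 alone was called, 6 were higher and the median was 0.79, or -0.28 over the members with a mean CPM of at least 10. That median was 0.99 in tmk1-1 and 0.14 in iaa32iaa34.

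The cytochrome P450 gene CYP71B11 stood at 4.17, 6.95 and 5.96 CPM in tmk1-1 and at 11.9, 8.78 and 15.9 CPM in iaa32iaa34, against 1.73, 2.92 and 3.93 CPM in WT, a log2 change of 1.3 ± 0.24. AT5G18600, a thioredoxin superfamily gene without a symbol, had the largest rise of genes outside the TUA2 pair, at 38.8, 17.2 and 28.2 CPM in tmk1-1 and 18.3, 16.8 and 7.63 CPM in iaa32iaa34, against 6.73, 2.35 and 0.683 CPM in WT (2.50 ± 0.45, limma, adjusted p = 0.0499). GSTU6, a glutathione transferase, stood at 4.43, 6.45 and 7.50 CPM in tmk1-1 and at 8.05, 12.4 and 11.9 CPM in iaa32iaa34, against 15.3, 18.8 and 19.9 CPM in WT, a log2 change of -1.07 ± 0.19. A lack of overlap between the groups was a condition for naming these 3 genes. ATHSP22.0, a small heat shock protein of the endoplasmic reticulum, stood at 3.04, 3.08 and 4.04 CPM in tmk1-1 and at 1.70, 1.33 and 1.97 CPM in iaa32iaa34, against 4.64, 6.90 and 5.80 CPM in WT, a log2 change of -0.98 ± 0.17 (limma, adjusted p = 0.0494). The other 3 measured heat shock genes did not pass, and the list's median was 0.0075.

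**Figure D4:**
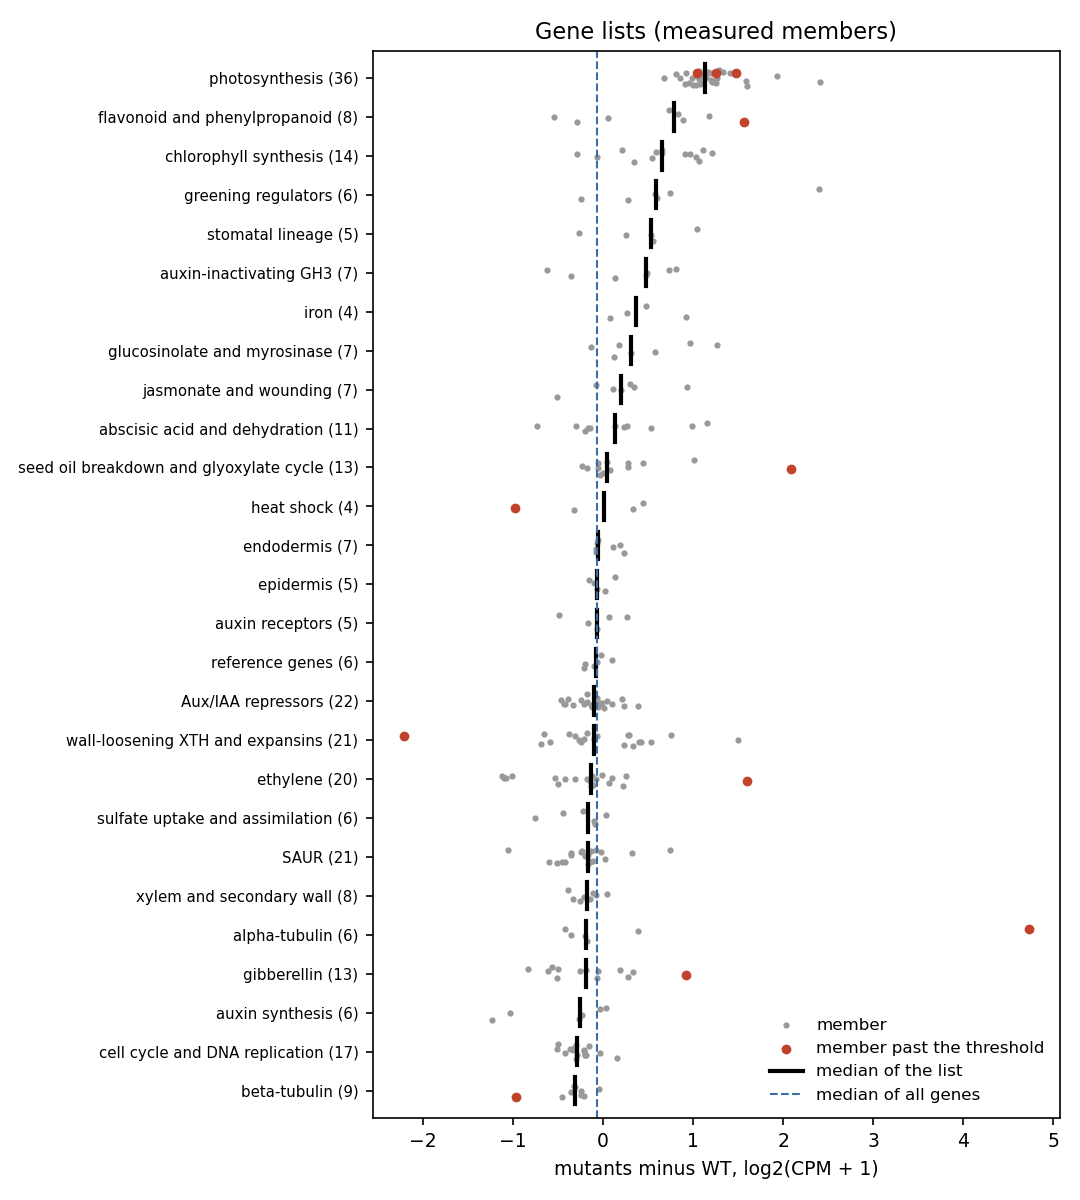
Pooled log2 difference (mutants minus WT) of each measured member of 27 gene lists, with the number of members in brackets, the list's median as a black bar and the median of all genes, -0.07, as a dashed line. Red points passed the threshold; the photosynthesis list is centred on 1.14, and most other lists lie near the dashed line.

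Among markers of other tissues of the stem, none of 7 Casparian strip genes of the endodermis, 8 xylem, 5 epidermis, 5 stomatal lineage or 2 shoot meristem genes was called. The medians were -0.05 for the Casparian strip, -0.18 for xylem, -0.06 for epidermis, 0.54 for the stomatal lineage and -0.07 for shoot meristem. With median-of-ratios scaling those of the Casparian strip and the epidermis were 0.02 and 0.0043, beside -0.0051 for all genes. Over genes with a mean CPM of at least 10 the stomatal lineage value was -0.27, which is that of the list's lowest member alone. The Casparian strip list varied widely within genotypes, with mean deviations of -1.65, 0.53 and 0.09 in tmk1-1 and -1.22, 1.14 and 1.18 in iaa32iaa34, against -1.81, -0.01 and 1.76 in WT. Its median was 0.93 without WT replicate 3 and -0.87 without WT replicate 1. FMA, a factor of guard cell formation, stood at 9.21, 4.66 and 7.72 CPM in tmk1-1 and at 5.87, 4.79 and 4.80 CPM in iaa32iaa34, against 3.55, 2.60 and 1.37 CPM in WT (limma, adjusted p = 0.0669). The root and seed storage lists have no member among the genes analysed here.

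The cell cycle list had 16 of 17 genes lower and no called member, with a median of -0.29, or -0.18 without tmk1-1 replicate 1. PCNA2, a clamp protein of DNA replication, was at -0.50 (limma, adjusted p = 0.16). Its list varied within tmk1-1, with mean deviations of -0.33, 0.53 and -0.05, while the 3 iaa32iaa34 libraries lay at -0.27, -0.13 and -0.27, against 0.15, 0.34 and 0.02 in WT. No member was called among the listed 7 jasmonate, 11 abscisic acid, 7 glucosinolate, 6 sulfate, 4 iron or 6 reference genes. Their medians were 0.20, 0.14, 0.31, -0.16, 0.37 and -0.08 in that order. IRT3, which fell, is not in the iron list. The abscisic acid median was -0.02 without WT replicate 3 and -0.14 over genes with a mean CPM of at least 10, where the jasmonate median was -0.08 and the sulfate median -0.45. The sulfate median also ranged from -0.32 without WT replicate 1 to -0.10 without tmk1-1 replicate 1. SULTR3;1, of the sulfate transporter family, came nearest to the threshold of all genes not called (limma, adjusted p = 0.0519). It stood at 28.9, 32.0 and 34.8 CPM in tmk1-1 and at 50.3, 65.8 and 76.9 CPM in iaa32iaa34, against 74.0, 74.4 and 81.0 CPM in WT, so iaa32iaa34 overlapped WT.

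A further 11 called genes with a symbol lie outside the rule and are named after their values were seen. GPX1, SOT12, a sulfotransferase, and TIR rose, with log2 changes of 0.87, 0.83 and 1.14. TIR had a mean of 2.52 CPM in the mutants and 0.567 CPM in WT. The 8 that fell, by 0.73 to 1.74 on the log2 scale, were MAN7, ARP9, HB28, ROC5, NSP4, ZFP2, CSLB01 and CYP96A7. MAN7 had a log2 difference of -1.12 in tmk1-1 and -0.33 in iaa32iaa34. The mutant means of NSP4, ZFP2, CSLB01 and CYP96A7 were 0.669, 0.273, 0.537 and 0.588 CPM, against 2.58, 1.85, 2.76 and 4.26 CPM in WT. Of the 82 called genes 40 have no symbol, 14 of which rose and 26 fell, and 12 had a mean level under 3 CPM.

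The mutants were set against each other in the same fit. The difference itself uses no WT value, but its standard error and test use the spread that all 9 libraries share. Of 16383 genes 9 differed between tmk1-1 and iaa32iaa34 (0.0549%), 5 higher and 4 lower in tmk1-1, and 1330 had p under 0.05 without adjustment (limma). Of the 82 genes of the pooled comparison 4 differed between the mutants, and the pooled value does not describe either mutant alone for them. They were TMK1, IAA32, AT5G65660 and AT5G35935. For the other 78 the mutants did not differ past the threshold, with log2 differences of up to 1.15 in size and a smallest adjusted p in limma of 0.165, which does not show that they are alike.

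AT5G65660, a gene of the hydroxyproline-rich glycoprotein family, stood at 6.61, 8.63 and 6.84 CPM in tmk1-1 and at 33.5, 51.6 and 37.1 CPM in iaa32iaa34, against 40.3, 43.7 and 45.3 CPM in WT. It was low in tmk1-1 alone, with a log2 difference between the mutants of -2.30 ± 0.18 (limma, adjusted p = 0.000454). AT5G35935, annotated as a pseudogene, stood at 27.3, 24.3 and 25.7 CPM in tmk1-1 and at 2.46, 2.93 and 1.63 CPM in iaa32iaa34, against 39.5, 28.5 and 29.4 CPM in WT. It was lowest in iaa32iaa34, with a difference of 3.02 ± 0.19 (limma, adjusted p = 8.47e-05), and tmk1-1 lay just below WT.

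The other 5 genes that differed between the mutants were not called in the pooled comparison. HEI10, known from meiotic crossovers, stood at 0.869, 2.08 and 0.735 CPM in tmk1-1 and at 7.57, 10.2 and 7.71 CPM in iaa32iaa34, against 1.36, 1.71 and 0.853 CPM in WT, so it was high in iaa32iaa34 alone. SULTR2;1, a sulfate transporter, stood at 85.2, 76.7 and 74.3 CPM in tmk1-1 and at 40.2, 40.2 and 34.6 CPM in iaa32iaa34, against 54.1, 55.6 and 67.8 CPM in WT. It lay above WT in tmk1-1 and below it in iaa32iaa34, and the pooled log2 difference was -0.10 (limma, adjusted p = 0.649). The remaining 3, AT4G04223, AT4G16892 and AT2G16660, have no symbol. Without tmk1-1 replicate 1 or 3 or iaa32iaa34 replicate 3 the count of 9 was 3, and without iaa32iaa34 replicate 2 it was 5.

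**Figure D5:**
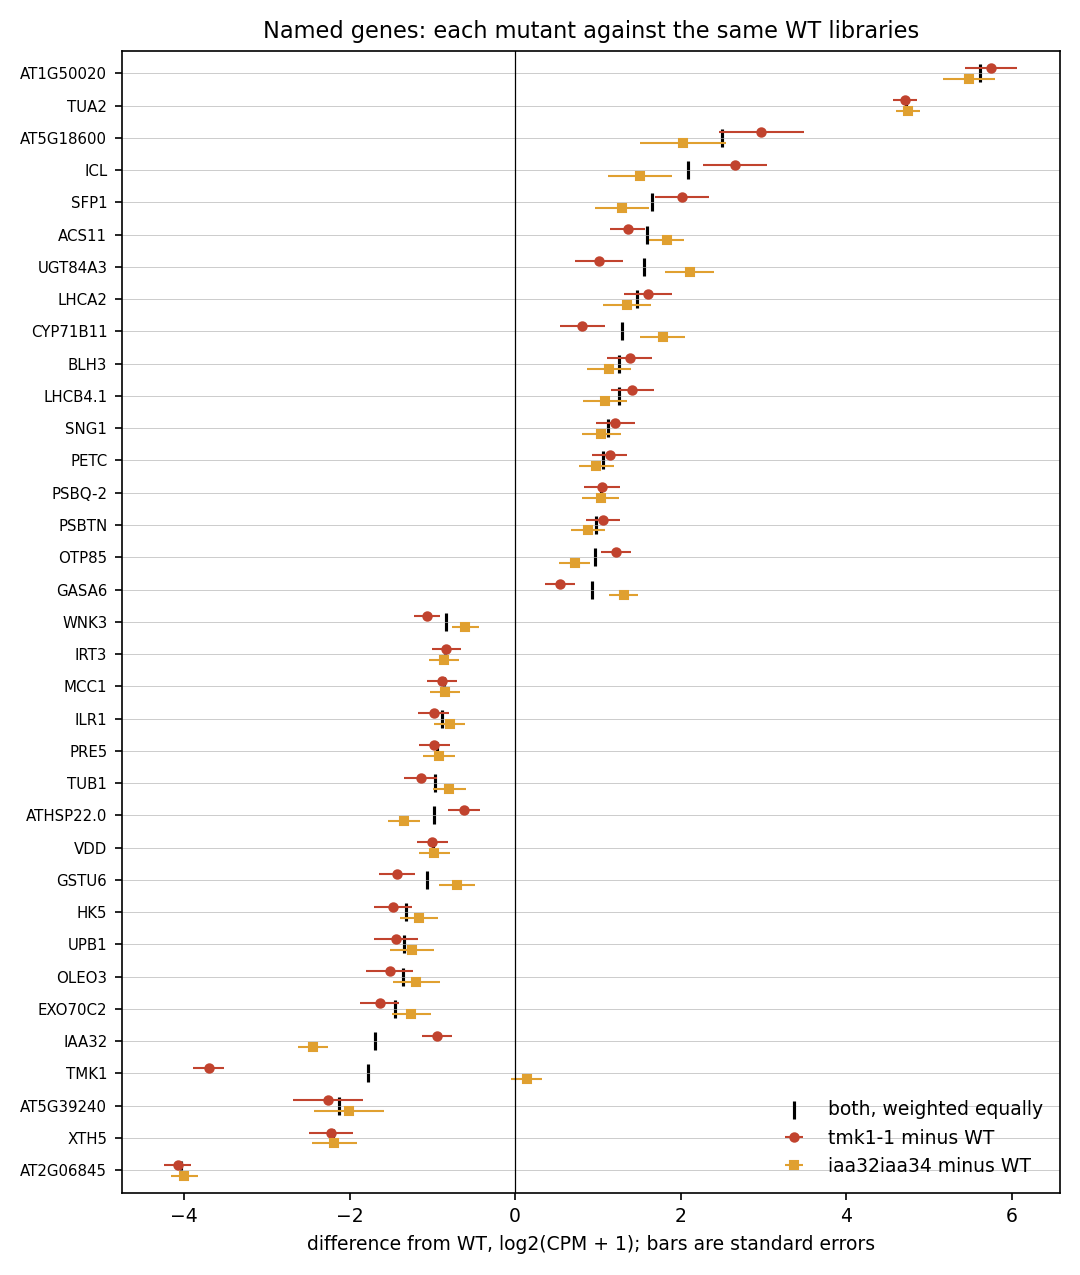
Log2 differences of the 35 named genes past the threshold, with tmk1-1 minus WT as red circles, iaa32iaa34 minus WT as orange squares and the equally weighted mean as a black bar; lines are standard errors from limma, and both mutants share the WT libraries. The circle and the square lie far apart for TMK1 and IAA32, and nearly coincide for TUA2, AT2G06845 and XTH5.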

How the data were processed

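RNA-seq libraries of apical hooks of 3 genotypes, 3 each, were assigned to groups by their titles. The CPM values come from the 1 table that the authors deposited. The submitters' processing notes name HISAT and HTSeq, with no version. The kit is strand-specific, per the labels' protocols. Build, annotation and the strand setting used in counting were not given in the sources used here, so no coordinates or sequences are printed. Symbols, product names and neighbour order are those of TAIR10.1, in which 16240 of 16383 identifiers were found and 7212 had a symbol.

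In each column every value was a whole number of equal steps, with a tolerance of 0.01 step. The steps were taken as reads to describe depth. Read numbers are thus inferred, a separate check did not accept the recovery for 3 of the 9 columns, and no count model was fitted. Values became log2(CPM + 1), which understates changes of low genes. Requiring 1 CPM or more in 3 or more libraries removed 0 genes, since all 16383 genes of the table already met this. Some called genes met it only through the group where they were high, such as AT2G06845 through its WT libraries and TIR through its mutant libraries. A linear model with a mean per genotype was fitted to all libraries with limma 3.58.1 (R 4.3.3), using lmFit and then eBayes with its trend option. Tests were two-sided, and p-values were Benjamini-Hochberg adjusted over 16383 genes with a threshold of 0.05. The model was tested on simulated counts, drawn independently for each library with 1 setting of the spread for every gene. Such data hold no shift shared by many genes of a library, so that test does not cover such shifts. Errors of log2 values are standard errors of the model.

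The comparison, the 32 gene lists and the tests were chosen with earlier results of these data known, and lists are described by counts and medians without a test. The rule for named genes took TMK1 and IAA32. It then took, among called genes with a symbol, a mean CPM of at least 3 and no overlap between mutant and WT libraries, the 15 with the largest changes each way. It also took up to 4 called members of each list, or else the 1 with the smallest p, and 2 genes without a symbol each way. Any other gene is named after its values were seen. Alternatives changed the pseudocount, the filter, the scaling, the model and the libraries used.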

Additional observations from a re-analysis of the deposited data

Results flagged for a closer look

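The values of the 6 mutant libraries were examined for a library far from the others in each of 55 named genes, by the gap to the nearest library divided by the range of the 6. In 6 genes this share was above the 95% critical value, which chance exceeds in about 1 in 20 groups drawn from 1 population. That rate need not hold here, as the 6 libraries are of 2 genotypes and many of the genes were chosen by their changes. The share was 0.633 for AT1G50020, 0.651 for PSBQ-2, 0.626 for PSBTN, 0.852 for ILR1, 0.687 for HK5 and 0.633 for OLEO3. In all 6 of these genes the library was iaa32iaa34 replicate 2. It stood at 37.6 CPM for AT1G50020, 161 CPM for PSBQ-2 and 116 CPM for PSBTN, below the other 5 mutant libraries, and at 15.5 CPM for ILR1, 9.05 CPM for HK5 and 54.4 CPM for OLEO3, above them.

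In 4 of the called genes the change against WT differed between the mutants, by the limma contrast of tmk1-1 minus iaa32iaa34 in log2 units. The difference was -3.84 for TMK1, 1.5 for IAA32, -2.30 for AT5G65660 and 3.02 for AT5G35935.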

How the results depend on the processing

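The 82 calls were recounted under 20 alternatives. The count was 22 and 61 with pseudocounts of 0.25 and 4, 82 with no filter, 9 with a mean CPM of at least 10, 29 and 30 with median-of-ratios and TMM scaling, 14 with the mutants as 1 group of 6, 39 without the mean-variance trend and 73 with a robust fit. It was 9 to 1422 with 1 library left out and 396 without iaa32iaa34 replicate 2 and WT replicate 3. With the mutants as 1 group, 6 of the 35 named calls passed, and TMK1 and IAA32 lost theirs (limma, adjusted p = 0.325 and 0.0747). The 9 genes that differed between the mutants were 3 to 8 with 1 library left out, 5 without both of those libraries, 6 with a mean CPM of at least 10, and 8 to 10 otherwise. The cause of these shifts was not tested. A count-model alternative was not run.

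When the replicate number entered as a block, the calls were 353 (157 higher, 196 lower), all 82 among them, and 10 of the 36 photosynthesis genes rose, while 0 did with either scaling. Samples share only the number: deviations of same-numbered libraries correlated at -0.40 to 0.53, over 0.1 in 7 of 9 pairs, and 5 of 9 libraries correlated best with their own number.

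None of the 35 named genes past the threshold changed direction in any alternative run. The direction turned for 3 named genes that were not called. With 1 WT library left out, CASP2 ranged from -0.82 to 1.34, AT3G23750 from -0.062 to 0.15 and KNAT1 from -0.16 to 0.037. CASP2 was -0.04 without iaa32iaa34 replicate 2, AT3G23750 was -0.03 without iaa32iaa34 replicate 1 and -0.003 without WT replicate 3, and KNAT1 was 0.0003 without tmk1-1 replicate 1 and 0.0052 and 0.0029 with median-of-ratios and TMM scaling. Genes of under 3 CPM have few reads, and their log2 changes depend on the pseudocount.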
